A study of Mus musculus with 11 samples.

Results

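On chromosomes 1 to 19, 407 of 1057836 merged regions (0.0385%) carried a huntingtin peak in at least 3 of the 4 Q111/+ peak lists and in none of the 3 WT lists. These 407 regions were found by joining all peaks of the 7 lists that overlap by at least 1 bp, and by asking which lists had a peak in each joined region. The regions were thus chosen by the calls of the 7 lists themselves, and their number, position, width and strength are given as a description, with no test between genotypes. The lists came from the whole striatum of male mice aged 4 months, littermates from a cross of B6.HttQ111/+ with B6.Htt+/+ mice. The Q111/+ animals carry 1 knock-in Htt allele, its CAG repeat expanded, and keep 1 normal Htt allele, and the WT animals carry 2 normal alleles. Chromatin fixed with formaldehyde, cut with micrococcal nuclease and then sonicated was precipitated with an antibody against HTT in every library used here. The 7 lists held between 87096 and 488325 peaks on these chromosomes, and all 3 WT lists were longer than all 4 Q111/+ lists. Input libraries of both genotypes, made without antibody, were not analysed here.

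Huntingtin is a large scaffold protein, found mostly in the cytoplasm and also in the nucleus, that binds many partners, transcriptional regulators among them. An expansion of its glutamine tract causes Huntington's disease, in which the striatum is the brain region hit hardest and transcription in its neurons changes early. Huntingtin has no classical DNA-binding domain, so a ChIP-seq peak marks DNA that was precipitated along with it, directly or through other proteins. Duplicated and repeated sequence is a common source of recurring ChIP-seq peaks in any experiment. The coordinates are those of mouse build mm9, for which no genome sequence or annotation was used here, so genes and sequences at the regions are not given.

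Most regions that recurred among the Q111/+ lists were also called in WT. Of 3933 regions with a peak in at least 3 Q111/+ lists, 3526 (89.7%) had one in at least 1 WT list, and 2046 (52.0%) had one in all 3. The 407 without any WT peak made up the remaining 10.3%, and 1.41% of the 28875 regions called in 3 or more lists of either genotype, which were themselves 2.73% of all regions. Of the 407, 20 (4.91%) were called in all 4 Q111/+ lists, and 387 were called in exactly 3. Just outside the rule, 10002 regions had a peak in 2 Q111/+ lists and no WT list, and 610 had one in at least 3 Q111/+ lists and in a lone WT list. That list was WT replicate 1 in 240 regions, WT replicate 2 in 236 and WT replicate 3 in 134.

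The other ways to draw 4 lists from the 7 put this number beside its background. For each of the 34 mixed groups, regions were counted that had a peak in at least 3 of the 4 lists drawn and in none of the other 3. The mixed groups gave 442 to 7311 regions, with a median of 1781, so the 4 Q111/+ lists gave fewer regions than any mixed group. List length moved with these counts. The 20 mixed groups that held WT replicate 1, the longest list, gave 1319 to 7311 regions, and the 14 that lacked it gave 442 to 1897. The 12 mixed groups of 3 Q111/+ lists and 1 WT list gave 442 to 1710 regions. Of these, the 4 in which WT replicate 3, the shortest WT list, replaced a Q111/+ list gave 442, 490, 524 and 641. As a share of the regions called in at least 3 lists of the group, the mixed groups ranged from 10.0% to 52.1%, against 10.3% for the Q111/+ lists. Regions called in all 4 lists made up 2.62% to 8.59% of each mixed group's regions, with a median of 4.55%, against 4.91% for the Q111/+ lists. With every list cut to its 87096 strongest peaks, the Q111/+ lists gave 576 regions (0.108% of the regions then formed), and the mixed groups gave 457 to 1312 with a median of 712. At equal length 9 of the 34 mixed groups held fewer regions than the Q111/+ lists and 25 held at least as many. Of the 12 mixed groups with 1 WT list, 7 then held fewer, with a range of 465 to 810 and a median of 555. The share called in all 4 lists was then 9.2% for the Q111/+ lists and 3.5% to 13.6% for the mixed groups. In the 12 with 1 WT list it was 4.1% to 8.6%. The WT lists then reach down to a stricter limit than the Q111/+ lists.

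**Figure D1:**
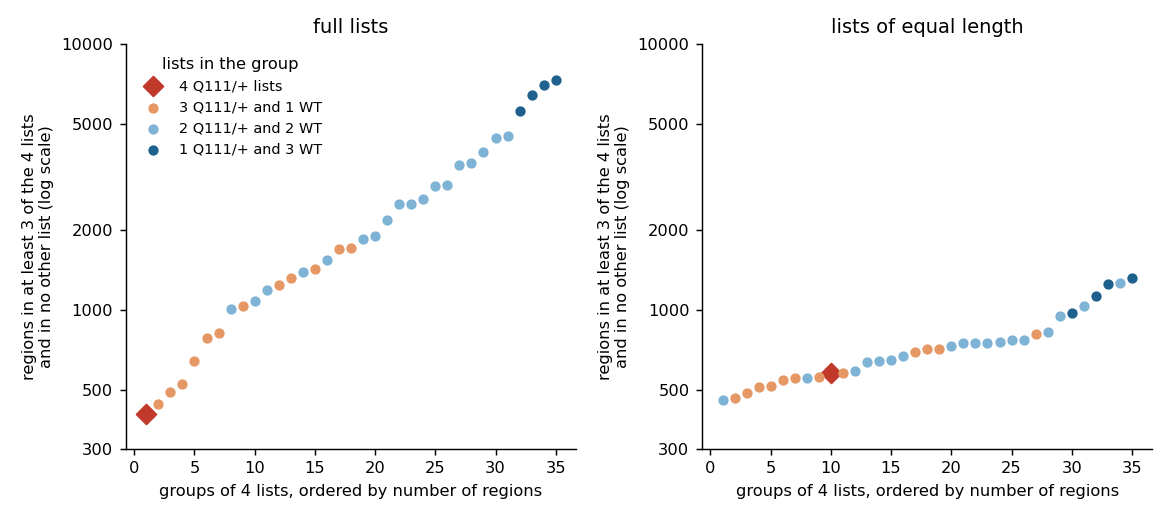
Number of regions (vertical axis, log scale) called in at least 3 lists of a group of 4 and in no list outside it, for the 35 groups of 4 lists in rising order (horizontal axis), with the full lists on the left and lists of 87096 peaks on the right. The red diamond is the group of 4 Q111/+ lists, at 407 and 576 regions. It is the lowest point on the left and has 9 groups below it on the right.

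Leaving out a list changed the count. When a Q111/+ list was left out and all 3 others were required, 134, 138, 101 and 96 regions were found without replicates 1, 2, 3 and 4. This rule is also stricter, so the count had to fall. When a WT list was left out and absence was judged in the other pair, 632, 633 and 545 regions were found without WT replicates 1, 2 and 3. WT replicates 1 and 2 thus removed nearly the same number of regions, though the list of WT replicate 2 is shorter, with 241707 peaks against 488325.

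The Q111/+ lists contributed unequally. Replicates 1, 2, 3 and 4 called 291, 290, 326 and 334 of the 407 regions. Their peaks in these regions made up 0.271%, 0.335%, 0.324% and 0.314% of the list, so replicate 2, the shortest list, had the highest share. Names of the deposited lists begin with DB for Q111/+ replicates 1 and 2 and WT replicate 1, and with JP for Q111/+ replicates 3 and 4 and WT replicates 2 and 3. The sources used here do not say what the prefixes stand for. Both JP lists with 1 DB list called 233 regions (57.2%), and both DB lists with 1 JP list called 154 (37.8%). Of the 1057836 merged regions, both DB lists of Q111/+ shared 5519, of which 2635 (47.7%) had no peak in the DB list of WT. Both JP lists of Q111/+ shared 7220, of which 3237 (44.8%) had none in the 2 JP lists of WT. Mixed pairs of lists within a prefix are not given here, so these shares have no background and show no difference between genotypes. The 4 trios ranged from 73 regions for replicates 1, 2 and 3 to 117 for replicates 1, 3 and 4. Among regions called in exactly 3 lists, the 18 trios of 2 Q111/+ lists and 1 WT list held 92 to 603 regions, and the 12 of 1 Q111/+ list and 2 WT lists held 245 to 1808. The 3 WT lists together held 3357.

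Most peaks at these regions were of middling strength in their own list. Ranked by the authors' −log10 p, the median peak at a region stood at the 56.0th, 61.7th, 63.4th and 61.6th percentile of Q111/+ replicates 1, 2, 3 and 4, where the median peak of a list stands at the 50th by construction. Median −log10 p was 8.13, 8.34, 6.70 and 5.65 in the 4 lists, and the medians of the whole lists were 8.13, 8.14, 5.49 and 5.43. The authors' fold enrichment over local background had medians of 3.38, 3.49, 2.78 and 2.89, and the whole lists had 3.38, 3.37, 2.78 and 2.89. The number of sequenced fragments at each summit, worked back from fold and p, had a median of 5, 5, 6 and 6. Over all peaks of each of these lists the median was 5. The middle part of the regions, from the lower to the upper quartile, held 5 to 6 fragments in replicates 1 and 2 and 5 to 7 in replicates 3 and 4. At 324 of the 407 regions at least 1 calling list had 5 fragments or fewer, and at 71 every calling list had at most 5. Where the number was recovered, 9 regions had 10 or more fragments in every list that called them. At 2 regions, both called by replicates 2, 3 and 4, no number was recovered in any calling list. These are not counted among the 9, and 1 of them ranks highest of the regions in 3 lists. By rank, 8 regions stood above the 90th percentile of every list that called them. Requiring at least 5 fragments in each calling list left 249 regions.

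**Figure D2:**
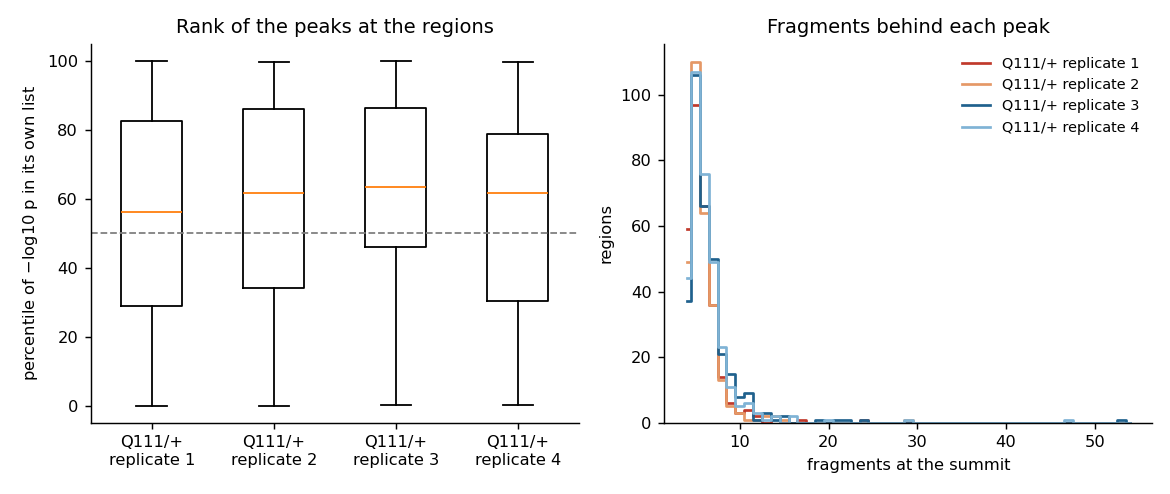
Left: percentile of each peak's −log10 p within its own list (vertical axis) for the peaks at the 407 regions, by Q111/+ list; boxes span the quartiles, lines mark the median, whiskers reach the lowest and highest value, and the dashed line marks the list's own median. Right: number of regions (vertical axis) by the number of fragments at the summit (horizontal axis), 1 line per list, without the 2 regions where no number was recovered. The medians lie at 56.0 to 63.4, and the counts pile up at 5 fragments.

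Strength rose with the number of lists on either side of the rule. Here as above, the strongest peak was taken where a list had more than 1 in a region. The median −log10 p of the Q111/+ peaks was 6.98 at regions in 2 Q111/+ lists and no WT list, 7.67 at those in 3 and 10.43 at the 20 in all 4. At regions in at least 3 Q111/+ lists it was 8.14 with 1 WT list calling, 9.24 with 2 and 11.21 with all 3. In the same order the median percentile was 49.2, 61.5 and 82.6 without WT, and 67.5, 78.7 and 87.9 with 1, 2 and 3 WT lists. Median width rose in that order too, from 304 to 433 and 609 bp, and from 593 to 760 and 1136.5 bp. These values do not separate strength from width. The median percentile was 82.6 at the 20 regions in all 4 Q111/+ lists and also at the 3526 regions shared with WT. Many peaks of Q111/+ replicate 1 tie at this rank, so the equal medians do not show equal strength.

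In most of the regions the peaks of 3 Q111/+ lists shared some bases, and in the rest they only chained together. Joining peaks makes a region wider wherever an added peak reaches past its edge. Width ran from 177 to 2208 bp with a median of 447 bp, and 5 regions exceeded 1000 bp. The mixed groups had median widths of 400 to 464 bp, and the 14 without WT replicate 1 had 400 to 451 bp. The 4 in which WT replicate 3 replaced a Q111/+ list had 400 to 416 bp, all below the Q111/+ lists. At equal length those 4 had 454 to 490 bp, against 486.5 bp for the Q111/+ lists. In 297 regions (73.0%) some stretch was covered by 3 Q111/+ lists at once, with a median length of 107 bp. In the other 110 the peaks formed a chain with no base shared by 3 lists. The summits of the calling lists lay a median of 200 bp apart from the leftmost to the rightmost, and within 100 bp of each other in 85 regions (20.9%). At the 610 regions with a lone WT list, a stretch covered by 3 Q111/+ lists was present in 67.5%, and the median distance between outermost summits was 250.5 bp.

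The region that ranked highest among the 20 called in every Q111/+ list lies on chromosome 4, at 96050389 to 96050837. Its −log10 p was 53.8, 21.0, 33.9 and 26.9 in replicates 1 to 4, and its summits held 24, 14, 24 and 20 fragments. The 4 summits fell within 9 bp of each other, and the nearest WT peak, of replicate 2, began 229 bp away. Its lowest percentile in the 4 lists was 98.97, and the next highest of the 20 had 92.75. The next lies at 145448004 to 145449488 on chromosome 4, where 9, 8, 11 and 9 fragments gave −log10 p values of 19.8, 14.0, 20.5 and 14.2. Here the summits were 687 bp apart, and a WT peak lay 26 bp from its edge. The third, at 44054336 to 44054777 on chromosome 14, had 10, 7, 9 and 9 fragments, with its strongest peak in replicate 1.

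The remaining regions of the 10 ranked highest in all 4 lists rested on 5 to 10 fragments in each list. On chromosome 4 they lie at 121703646 to 121704496, with 7, 7, 7 and 8 fragments, at 146937831 to 146938634, with 7, 7, 7 and 9, at 144988704 to 144989136, with 6, 6, 5 and 8, and at 146761718 to 146762145, with 5, 5, 9 and 7. On chromosome 16 they lie at 43912616 to 43914823 and at 3270642 to 3271069. The first of these was the widest of all 407, at 2208 bp, since it joined 8 peaks whose outermost summits lay 1139 bp apart. The last, at 17454610 to 17455004 on chromosome 9, held 6, 5, 5 and 9 fragments. Each of the 4 lists held the highest −log10 p at some of these 10 regions. Chromosome 4 held 9 of the 20.

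**Figure D3:**
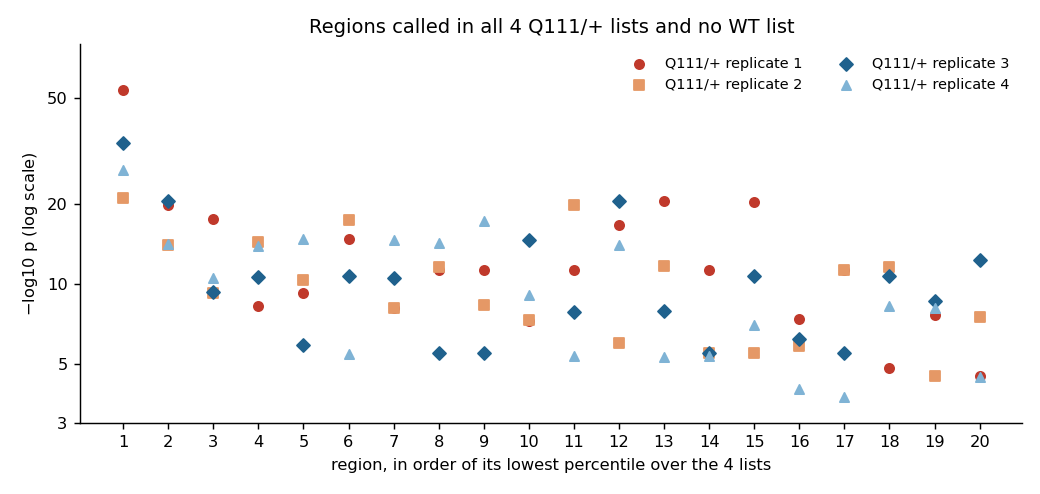
The authors' −log10 p (vertical axis, log scale) in each Q111/+ list at the 20 regions called in all 4 Q111/+ lists and no WT list, in order of the lowest percentile over the 4 lists (horizontal axis). The first region, with values of 21.0 to 53.8, stands above the rest in all 4 lists. Further right the lists change order from region to region.

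Among the 387 regions called in exactly 3 lists, the one ranked highest lies at 37052023 to 37052669 on chromosome 5. Its −log10 p was 27.4, 63.5 and 34.0 in replicates 2, 3 and 4, but its fold was only 1.74, 2.11 and 1.80. By the formulas of MACS, such significance at so low a fold comes with a high local background in the same list. The 3 summits fell within 2 bp, and the nearest WT peak was 6488 bp away. On chromosome 4, at 78875555 to 78875939, replicates 1, 2 and 3 held 17, 13 and 22 fragments, with fold values of 6.89, 4.64 and 6.21. WT peaks lay 480, 136 and 148 bp away in replicates 1, 2 and 3. At 31546001 to 31546300 on chromosome 6, replicates 2, 3 and 4 held 14, 21 and 29 fragments, and a WT peak lay 257 bp away.

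The other regions of the 10 ranked highest in 3 lists held 6 to 11 fragments. They lie on chromosome 5 at 96089241 to 96089521, on chromosome 7 at 3878479 to 3878672, 46518781 to 46519569 and 39248816 to 39249621, on chromosome 12 at 116908917 to 116909272, on chromosome 13 at 35726970 to 35727217 and on chromosome 6 at 69307745 to 69308112. At the first of these, WT peaks of replicates 1, 2 and 3 lay 37, 94 and 181 bp from its edges, so all 3 WT lists had a peak beside the region though not in it. At the last, a peak of WT replicate 2 lay 36 bp away. The widest region called in 3 lists, at 71658439 to 71659496 on chromosome 11, spanned 1058 bp.

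WT peaks were near most of the 407 regions. The median distance to the nearest peak of any WT list was 683 bp, 254 regions (62.4%) had 1 within 1 kb, and 33 had 1 within 100 bp. At the 10002 regions called in 2 Q111/+ lists and no WT list, the median distance was 948 bp. Of these, 5162 (51.6%) had a WT peak within 1 kb and 678 had 1 within 100 bp. Requiring that no WT peak lie within 1 kb left 153 regions. The Q111/+ list that did not call a region also had peaks nearby, at larger distances. For regions missing only replicate 1, 2, 3 or 4, the nearest peak of that list lay a median of 4824, 5404, 8915 and 5293 bp away, and within 1 kb in 17.2%, 14.5%, 14.8% and 23.3% of them. For WT replicates 1, 2 and 3 the medians over all 407 regions were 1260, 1795 and 3915 bp, with 43.2%, 35.9% and 24.1% within 1 kb. The mean spacing of all peaks was 4946, 9992 and 18038 bp in WT replicates 1, 2 and 3, and 22150, 27731, 23563 and 22482 bp in Q111/+ replicates 1 to 4. Longer lists had shorter distances among the WT lists. Among the Q111/+ lists replicate 3 had the longest distance without the widest spacing, but each of these medians covers a different set of regions. The 81 regions missing only replicate 3 lay a median of 1115, 3164 and 5945 bp from peaks of WT replicates 1, 2 and 3.

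Around the regions every list had more peaks than its own mean density, though WT replicate 1 only slightly more. Within 10 kb on either side, peak density was 2.42, 2.54, 3.20 and 3.06 times the list's own mean in Q111/+ replicates 1 to 4. In WT replicates 1, 2 and 3 it was 1.29, 2.12 and 2.60 times the mean. From 10 to 100 kb away the ratios were 2.01 to 2.66 in the Q111/+ lists, and 1.21, 1.89 and 2.35 in the WT lists. WT replicate 3 lay inside the range of the Q111/+ lists at both distances. Outside the densest windows described next, the ratios within 10 kb were 1.68 to 2.06 in the Q111/+ lists and 1.14, 1.62 and 1.79 in the WT lists. From 10 to 100 kb away they were 1.35 to 1.58 in the Q111/+ lists, and 1.08, 1.4 and 1.49 in the WT lists. Flanks of other recurring regions are not given here.

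**Figure D4:**
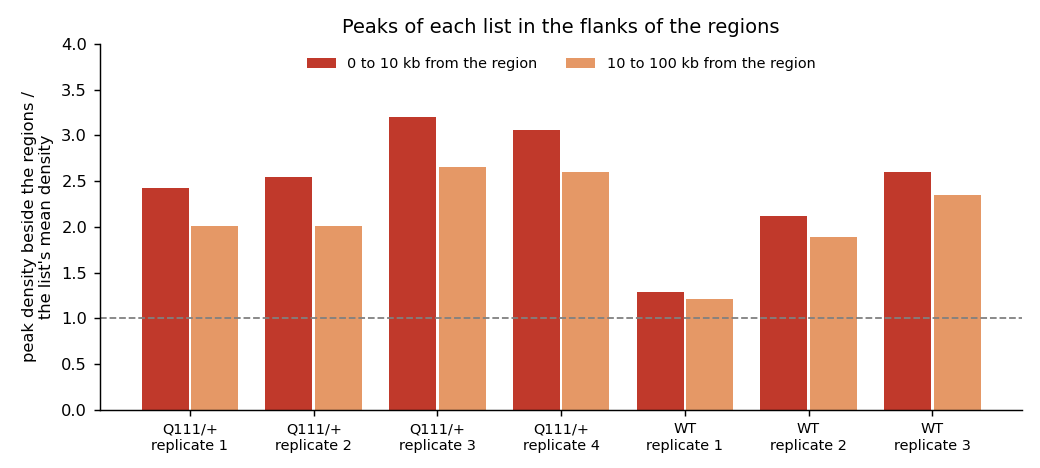
Density of peak summits beside the 407 regions divided by the mean density of the same list over chromosomes 1 to 19 (vertical axis), for each list (horizontal axis) and for distances of 0 to 10 kb and 10 to 100 kb; the dashed line marks the list's mean. All 7 lists lie above 1 at both distances, WT replicate 1 the least, at 1.29 and 1.21.

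Single regions were spread over all 19 chromosomes, and a small part was packed into a few places. There were 1.18 to 2.95 regions per 10 Mb of covered span, lowest on chromosome 11 and highest on chromosome 4. Chromosome 4 held 45 regions (11.1%) on 6.32% of the span, and chromosome 5 held 33 (8.11%) on 6.19%. Both also held more than their span of the regions called in 3 or more lists, 9.32% and 8.60%. The share on chromosome 4 ran from 5.81% to 12.0% in the mixed groups, and 5 of the 34 reached the value of the Q111/+ lists. In all, 283 of the 329 windows of 1 Mb with any of these regions held 1, and 6 windows held at least 4. Outside those 6 windows chromosomes 4 and 5 held 1.64 and 1.27 regions per 10 Mb. The first 1 Mb of the chromosomes held 7 of the regions (1.72%) and the last 1 Mb 5 (1.23%), against 1.84% and 0.793% of the regions called in 3 or more lists.

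**Figure D5:**
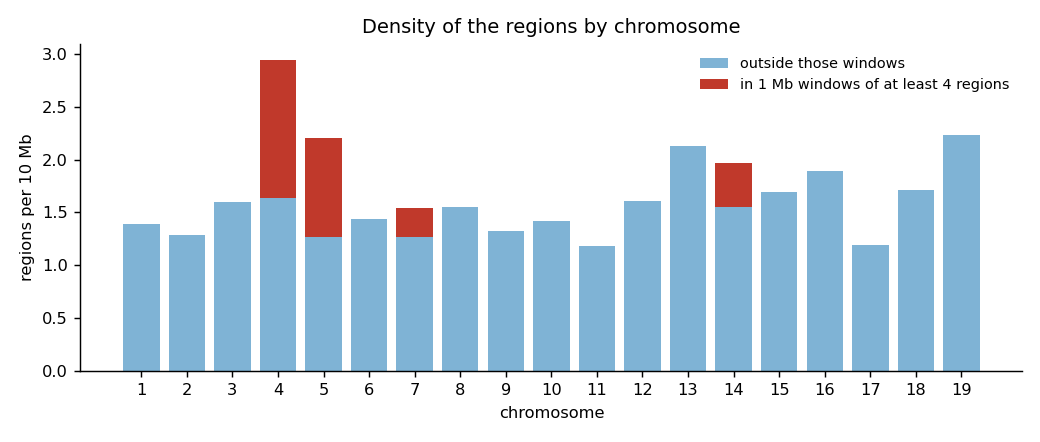
Regions per 10 Mb of covered span (vertical axis) on each chromosome (horizontal axis), divided into those in 1 Mb windows that hold at least 4 of them and those outside. Without these windows chromosome 4 drops from 2.95 to 1.64 per 10 Mb, below chromosomes 13, 15, 16, 18 and 19.

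The 6 fullest windows held 43 of the 407 regions (10.6%). They held 6.26% of the regions called in 3 or more lists and 0.506% of all merged regions. On chromosome 4 the windows from 145000001 to 146000000 and from 146000001 to 147000000 held 8 and 12. Distal chromosome 4 is known for a duplicated cluster of zinc finger genes. On chromosome 5 the windows from 94000001 to 95000000 and from 95000001 to 96000000 held 6 and 8. The window from 44000001 to 45000000 on chromosome 14 held 5, and that from 46000001 to 47000000 on chromosome 7 held 4. Most recurring regions in these windows had WT peaks as well. The pair on chromosome 4 held 397 and 467 regions called in 3 or more lists, of which 389 and 455 had a WT peak. The regions lacking WT were 2.38% of the regions called in 3 or more lists inside the 6 windows and 1.34% outside, where the windows were picked because they held many of them. Counting the 5 fullest windows of each group, the mixed groups had 1.53% to 11.6% of their regions there, and the Q111/+ lists 9.58%.

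At a finer scale, 66 regions (16.2%) lay within 100 kb of another, in 25 clusters, and 341 stood alone. The mixed groups ranged from 10.4% to 53.9%, and this share grows with the number of regions. The 14 mixed groups without WT replicate 1 ranged from 10.4% to 35.8%. Without the 6 fullest windows 7.97% of the Q111/+ regions lay within 100 kb of another. The largest cluster had 9 regions in 216.5 kb, from 146731615 to 146948123 on chromosome 4. Its highest ranked region, at 146800307 to 146800892, held 10, 13 and 13 fragments in replicates 1, 2 and 3. In the span of this cluster the Q111/+ lists had 118, 91, 157 and 147 peaks and the WT lists 109, 152 and 149. Per 10000 peaks of the list these were 10.8, 10.4, 15.3 and 13.7 in Q111/+ replicates 1 to 4, and 2.23, 6.29 and 11.1 in WT replicates 1, 2 and 3. On that scale WT replicate 3 overlapped the Q111/+ lists, and WT replicates 1 and 2, the longest lists, lay below them. The next cluster had 5 regions, from 145294731 to 145545243 on chromosome 4, and included the second of the regions called in all 4 lists. Clusters of 4 lay at 46425932 to 46578283 on chromosome 7 and at 44031939 to 44074202 on chromosome 14. In the latter, 42.3 kb long, 23 regions were called in 3 or more lists and 19 of them had a WT peak.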

How the data were processed

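The data were deposited HTT ChIP-seq peak lists, 1 per library, of 4 Q111/+ and 3 WT samples. The submitters' processing notes name Bowtie2 2.2.5, MACS2 2.1 and mm9 but give them no role, and the list names carry a MACS p of 0.001. The deposited narrowPeak columns hold the authors' fold enrichment (a ratio), −log10 p, −log10 q and a whole-number score, which was not used. The lists give no read totals, so sequencing depth is unknown, and no source used here says whether input was the control. Nor do the labels say that libraries came from separate animals.

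Peaks on chromosomes 1 to 19 overlapping by at least 1 bp were merged, and coordinates are 1-based. Lists of equal length held the 87096 peaks with the highest −log10 p. Percentiles are of −log10 p within a list. Fragments at a summit were recovered from the deposited fold and −log10 p by the formulas of MACS, for whole numbers up to 60, where −log10 p did not exceed 60 and a match meant a difference under 0.02. At least 99.94% of the peaks searched matched. Regions were named by rank, the lowest percentile over the calling lists: the 10 highest in 4 lists, the 10 highest in 3, the 3 widest, and the highest of the 3 largest clusters (a tie at 4 regions went to chromosome 7, first in order). Alternatives were other thresholds, list lengths, overlaps and left-out libraries. The regions, rules and alternatives were chosen with earlier results of these data known. Merging and fragment recovery were tested on simulated data. The software was matplotlib 3.10.9, scipy 1.17.1, pandas 2.3.3, numpy 2.4.6 and Python 3.11.15.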

Additional observations from a re-analysis of the deposited data

Results flagged for a closer look

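The sex chromosomes lie outside the 19 chromosomes described above and also held such regions. By the same rule, 38 regions on the X chromosome and 8 on the Y chromosome had a peak in at least 3 Q111/+ lists and no WT list. They came from 841 regions on the X and 141 on the Y with a peak in at least 3 Q111/+ lists, and 6 and 3 of them were called in all 4. On the X chromosome 11 of the 38 lay in the window from 120000001 to 121000000. On the Y chromosome 4 of the 8 lay in the window from 1000001 to 2000000 (mm9). Each window was picked as the fullest of its chromosome. Totals of merged regions on the X and Y, and other recurring regions in these windows, are not given here. The window counts therefore have no background.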

How the results depend on the processing

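The count of 407 regions became 20 when all 4 Q111/+ lists were required, 10409 when 2 were enough, and 1017 when 1 WT list was allowed. It was 215 with a −log10 p of at least 5 in the Q111/+ lists and absence judged in the full WT lists, and 1082 with peaks up to 1000 bp apart merged. It was 153 without regions that have a WT peak within 1000 bp and 249 with at least 5 fragments in each calling list, both chosen after seeing the data. Leaving out 1 library gave 96 to 633 regions, the low values being those without a Q111/+ list, where all 3 others were required and the count had to fall. The share within 100 kb of another region, 16.2%, was 26.2% in lists of equal length, 7.97% without the 6 fullest windows, and 9.38% to 30.8% with 1 library left out. It was 3.93% for a distance of 10 kb and 39.8% for 1 Mb. The median width of 447 bp was 486.5 bp in lists of equal length, 503 bp with peaks up to 100 bp apart merged, and 424.5 to 474 bp with 1 library left out. The 576 regions of the lists of equal length overlapped 302 of the 407. No paired analysis was possible because the regions were counted and no test between genotypes was made; counts within each prefix are given with the results. Few fragments per peak and unknown depth limit what absence from a WT list shows.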
